A study of Mus musculus with 2 samples.

Results

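Lin28a, Lin28b, Igf2bp1, Igf2bp2 and Igf2bp3 encode 5 oncofetal RNA-binding proteins, and their transcripts were examined among the RNAs that came down with an antibody against ELAVL2 from newborn mouse ovary. They were chosen by gene symbol, and their peaks were read from the authors' table that pairs each called peak with genes. A peak that overlapped a member's annotated body was counted for it, and a peak only nearest to it was kept apart. Of the 5 genes, 4 were overlapped by a peak, out of 6158 genes overlapped in all. They held 43 of the series' 28332 peaks, and 5 further peaks lay outside the gene they were paired with.

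The series compares 1 ELAVL2 RIP sample with 1 input sample. RNA immunoprecipitation (RIP) pulls a protein out of a lysate with the RNA attached to it. Both samples came from ovaries at P0, the day of birth, of mice whose strain and genotype the labels do not give. A homogenate of 100 ovaries was used per the labels, so both samples are pools of many animals. The RIP used 5 ug of anti-ELAVL2 on protein G beads, and the input was 5% of the cleared lysate. There was no control pulldown among the samples analysed, so RNA held by ELAVL2 and RNA retained otherwise cannot be told apart. After duplicate tags were removed, the RIP had 13787676 tags and the input 19479946. Every value below is the authors' comparison of these 2 samples. No test between conditions is possible, and no fold has a replicate error.

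LIN28A and LIN28B are cold shock and zinc knuckle proteins that bind precursors of the let-7 microRNAs and block their maturation. The IGF2BP proteins (IMPs) carry RRM and KH domains and hold target mRNAs in ribonucleoprotein granules, where they affect stability, location and translation. These genes are active in embryonic and germ cells and low in most adult tissues, and let-7 in turn represses several of them, so that LIN28 and let-7 form a loop of mutual repression. ELAVL proteins bind U-rich and AU-rich stretches, mostly near the 3' ends of mRNAs. They can stabilise those mRNAs or change their translation.

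The let-7 sequences are shown because their shared seed is what joins LIN28, its targets and the gene lists used below. In the RefSeq table (GRCm38.p6) the 9 distinct let-7 5' arm sequences, miR-98 included, all had the seed shown in capitals (bases 2 to 8), as in these 4:
mmu-let-7a-5p: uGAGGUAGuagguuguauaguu
mmu-let-7d-5p: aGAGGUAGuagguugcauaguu
mmu-let-7g-5p: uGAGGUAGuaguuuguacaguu
mmu-miR-98-5p: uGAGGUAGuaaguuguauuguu

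LIN28 proteins are known to contact a GGAG motif (letters G, G, A, G on the hairpin's own strand) in the loop of let-7 precursors. Of 12 let-7 family hairpins in the same table, 9 had GGAG starting in the 12 bases before the 3' arm, against 39 of 680 other hairpins (5.74%) with an annotated 3' arm. The pair below shows a hairpin with the motif in capitals, on chromosome 9 from 106178840 to 106178927 (plus strand), and then a hairpin without it in that window, on chromosome 15 from 85706603 to 85706697 (plus strand):
Mirlet7g: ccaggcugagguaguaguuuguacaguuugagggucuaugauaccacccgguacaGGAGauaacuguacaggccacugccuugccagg
Mirlet7c-2: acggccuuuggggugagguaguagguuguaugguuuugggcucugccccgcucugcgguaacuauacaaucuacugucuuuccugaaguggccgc
None of the 12 hairpin loci was overlapped by a RIP peak, and none had a peak within 5 kb. The nearest peak was 6058 bp from Mirlet7g. The libraries came from amplified RNA and an mRNA kit per the labels, so whether let-7 precursors themselves were captured was not tested.

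Peaks were called on 4 of the 5 members, against 23.4% of 21896 protein-coding reference genes. Long genes offer more room for a peak, and among the 9701 protein-coding genes whose reference bodies lie between the shortest and longest of the members (15.9 to 130 kb) the share was 32.2%. The number of overlapping peaks was 1 in Lin28a, 11 in Lin28b, 0 in Igf2bp1, 13 in Igf2bp2 and 18 in Igf2bp3, while the median overlapped gene held 2. Among the 6158 overlapped genes, Igf2bp3 ranked 52nd by number of peaks, Igf2bp2 186th and Lin28b 311th. These 3 held at least 10 peaks each, as did 2.15% of all protein-coding genes, those without a peak included. Of the 18 Igf2bp3 peaks, 5 also lay in the neighbouring gene Malsu1, and more of them did so by its RefSeq body, as described below. Per 10 kb of gene body the order was much flatter, with 1.39 peaks in Igf2bp3, 1.25 in Igf2bp2, 1.18 in Lin28b and 0.645 in Lin28a, against a median of 0.713 over all overlapped genes. All 4 reached a best -log10 q above 10, at 13.9 for Lin28a, 13.5 for Lin28b, 10.5 for Igf2bp2 and 10.4 for Igf2bp3. A best value of at least 10 was reached by 3.4% of all protein-coding genes, those without a peak included. By this value Lin28a ranked 211th of the 6158 overlapped genes, Lin28b 240th, Igf2bp2 713th and Igf2bp3 735th.

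**Figure D1:**
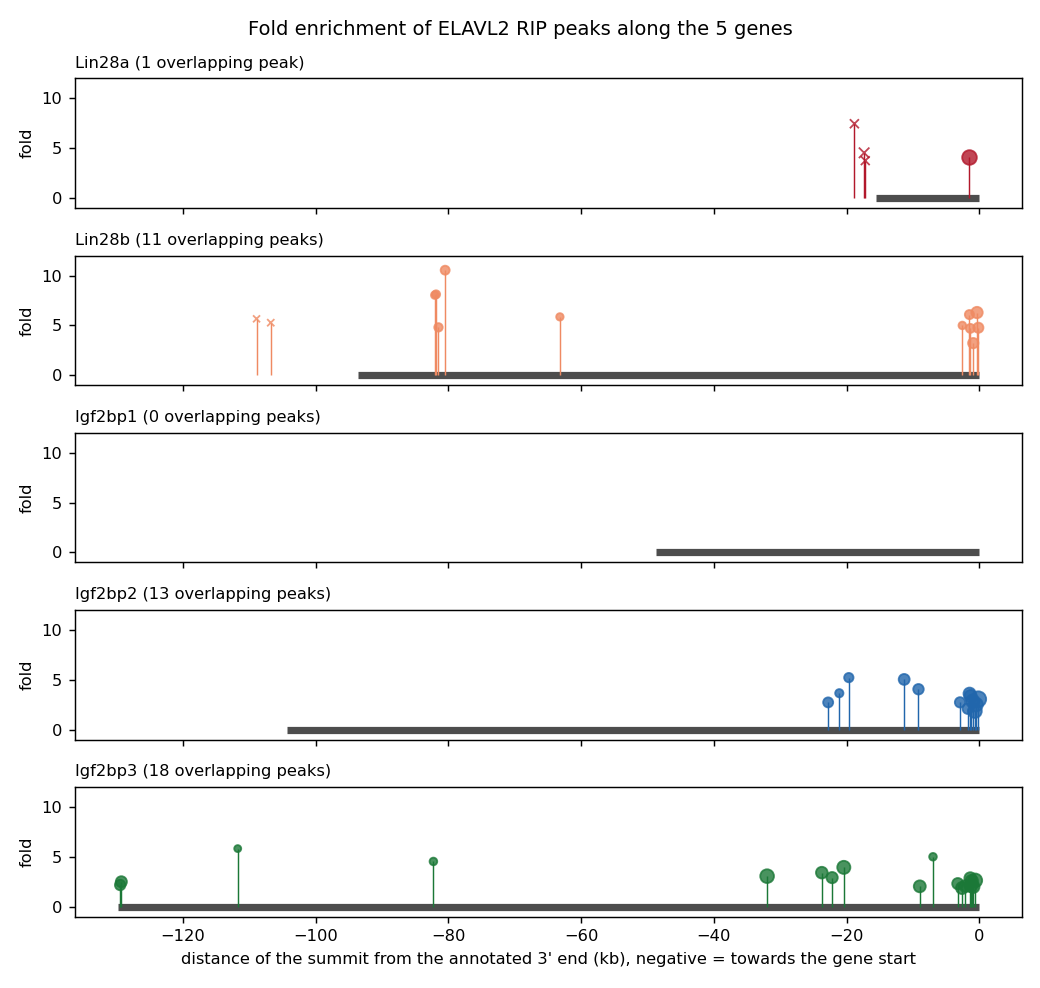
Fold enrichment (vertical axis, RIP over scaled local input) of each peak paired with the 5 genes, against the distance of its summit from the annotated 3' end in kb (horizontal axis). Grey bars are gene bodies, circles are peaks overlapping the gene, crosses are peaks outside it, and a larger symbol means a larger pileup. Within 5 kb of the 3' end lie 6 of 11 Lin28b peaks, 8 of 13 Igf2bp2 peaks and 8 of 18 Igf2bp3 peaks. Lin28b has a second cluster of 4 peaks with its highest fold of 10.5, and Igf2bp1 has no peak.

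Lin28a encodes the LIN28 paralogue of pluripotent and germ cells. Its body in the authors' table runs from 134003330 to 134018841 on chromosome 4 (mm10, minus strand), and a single peak, at 134003351 to 134005380, covers the last part of it. At 2030 bp this peak was the longest of all 28332, where the median was 79 bp. The next longest was 1430 bp, in Foxn3. The Lin28a peak reached to within 21 bp of the annotated 3' end. Its summit, 1583 bp from that end, had a RIP pileup of 58 tags against an input level of 13.4 tags after scaling, which equals 19 unscaled input tags. The deposited fold was 4.08, and the ratio of scaled tags without the pseudocount was 4.31 (2.53 to 7.67, exact binomial 95% interval, counting error only). The summit was called from the same tags, so this interval and those below are not tests of enrichment.

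A long unbroken peak and a row of short ones are counted very differently. By called length summed over the gene, Lin28a ranked 106th of 6158 genes with 2030 bp. Igf2bp2 had 1757 bp in 13 peaks, Lin28b 1379 bp in 11 and Igf2bp3 1134 bp in 18, against a median of 213 bp over all overlapped genes. By summed length, Lin28a therefore stood above the other 3 genes with peaks and Igf2bp3 below them, the opposite of their order by number of peaks.

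Lin28a was also the nearest gene to 3 peaks upstream of it. They lay 1662, 1832 and 3295 bp before its annotated start and had folds of 3.75, 4.53 and 7.45, with RIP pileups of 16, 26 and 17 and input levels equal to 5, 7 and 2 tags. For the highest of them, the ratio of scaled tags was 12 with a counting interval of 2.85 to 107. In the RefSeq table the Lin28a body ends at 134019196, and these peaks still lay 1308, 1478 and 2941 bp beyond it. None of them overlapped a gene in the authors' table. Whether they belong to a longer Lin28a transcript or to another RNA was not tested.

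Lin28b is the paralogue that acts on let-7 mainly in the nucleus. It had the largest fold of the 5 genes and ranked 80th of 6158 by best fold. Its body runs from 45376620 to 45470201 on chromosome 10 (minus strand). Of its 11 peaks, 10 fell in 2 crowded places and 1 stood alone. Near the end of the gene, 6 lay within 5 kb of the 3' end, with RIP pileups of 10 to 32 and folds of 3.22 to 6.29. The strongest of the 6, at 45376841 to 45377252, had a pileup of 32 against an input level equal to 6 tags. Its fold was 6.29, with 12.9 for the -log10 q.

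The other crowded place was near the start of the gene. Between 45457019 and 45458768, within 1750 bp and 11544 to 13104 bp from the annotated start, 4 peaks had folds of 10.5, 4.80, 8.12 and 8.04 in order of position. Their RIP pileups were 17, 14, 12 and 10 tags, and their input levels were 0.708, 2.12, 0.602 and 0.369 tags. The first of them, at 45457019 to 45457125, rested on 17 RIP tags against 1 input tag, a ratio of scaled tags of 24.0 with a counting interval of 3.76 to 1004. A further peak 30389 bp from the start had 9 RIP tags and a fold of 5.86. The high folds in this stretch go with low input levels: among its 3 peaks with 20 or more RIP tags, Lin28b reached 6.29, in the 3' cluster.

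The length of Lin28b depends on the annotation. The RefSeq body reaches to 45486314, and 2 peaks that the authors' table places 13124 and 15293 bp upstream of the gene lie inside it. Their folds were 5.27 and 5.66, at pileups of 8 and 7 tags. With the RefSeq body Lin28b thus held 13 peaks. No peak overlapped the RefSeq promoter window of Lin28b (45470152 to 45470451), and the nearest was 11384 bp away. That window lies at the start of the shorter body, not at the RefSeq limit of 45486314. The upstream peak at 45485495 to 45485545 is close to that limit. The windows of Lin28a, Igf2bp2 and Igf2bp3 held no peak either.

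Igf2bp1 encodes IMP1, known for holding beta-actin and Myc mRNA. It had no row in the table. In the reference it lies on chromosome 11 from 95957163 to 96005944, and the nearest called peak was 24140 bp outside it, at 95932908 to 95933023 (fold 8.20, pileup 13). The table pairs that peak with Gm24725. A gene without a peak has no value here: low RNA level, no enrichment and too few tags cannot be told apart. In a whole-organ lysate, fewer cells of a type and less RNA per cell cannot be told apart either.

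Igf2bp2 encodes IMP2, the family member that stays on in many adult tissues. Its body runs from 22059009 to 22163299 on chromosome 16 (minus strand). All 13 peaks lay in the part of the gene nearest the 3' end, with summits within 22781 bp of it, and no summit lay in the remaining 81509 bp up to the start. The first 7 peaks from the 3' end followed each other within 1703 bp and covered 1226 bp of it. Their RIP pileups were 67, 50, 51, 47, 39, 37 and 28 tags from the 3' end inwards. The input levels were 21.2, 19.3, 26.9, 15.8, 10.9, 9.52 and 12.7 tags in the same order. The pileup was highest at the 3' end and lowest at the inner end of the row, the input level peaked at the third of these peaks, and the folds lay between 1.86 and 3.61.

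Farther from the 3' end, the Igf2bp2 pileups were lower and the folds higher by the median, with overlapping ranges. The 5 peaks more than 5 kb from the 3' end had a median pileup of 23 at a median input level of 4.95, against 43 at 14.3 for the 8 nearer ones. Their median fold was 4.05, against 2.80. The best fold of the gene, 5.22, was 19669 bp from the end, with 19 RIP tags against an input level equal to 4 tags. The ratio of scaled tags there was 6.71 (2.23 to 27.1).

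Igf2bp3 encodes IMP3, the most strictly embryonic of the family. Its body runs from 49085223 to 49214957 on chromosome 6 (minus strand), and it carried the most peaks of the 5 genes and the lowest median fold. That order by number turned under stricter q and fold limits, but not under a pileup limit. At pileups of 20 or more, 15 peaks were left in Igf2bp3, 11 in Igf2bp2, 3 in Lin28b and 1 in Lin28a. At a -log10 q of 5 or more, 4 peaks were left in Igf2bp3, 8 in Igf2bp2, 7 in Lin28b and 1 in Lin28a. With folds of 4 or more, 3 were left in Igf2bp3, 3 in Igf2bp2, 10 in Lin28b and 1 in Lin28a. The median fold of its 18 peaks was 2.62, against 3.06 in Igf2bp2, 4.08 for the Lin28a peak and 5.86 in Lin28b. The 8 peaks within 5 kb of the 3' end had pileups of 31 to 51 at input levels of 11.5 to 19.8, and folds of 1.89 to 2.88. Of these, 5 also lay in Malsu1, a mitochondrial ribosome assembly gene on the opposite strand whose 3' end overlaps that of Igf2bp3. The called peaks carry no strand, so these 5 cannot be given to Igf2bp3 alone.

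Away from Malsu1 as the table places it, Igf2bp3 had 13 peaks. Its strongest by -log10 q was at 49105605 to 49105676, 20424 bp from the 3' end. There the pileup was 45, the input level equal to 15 tags, the fold 3.96, with 10.4 for the -log10 q. Its largest fold, 5.85, came from 7 RIP tags over the genome-wide background level of 0.369. At the other end of the gene, 2 peaks lay 302 and 477 bp from the annotated start, with pileups of 26 and 30, input levels equal to 16 tags each, and folds of 2.19 and 2.52. They were the only member peaks in the first 10% of a gene body. In RefSeq the Malsu1 body is longer and ends at 49139144, so that it also spans the peaks of Igf2bp3 up to the peak that ends at 49117217. The peak at 49105605 to 49105676, the strongest by -log10 q, is among them. With that body, these peaks cannot be given to Igf2bp3 alone either.

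**Figure D2:**
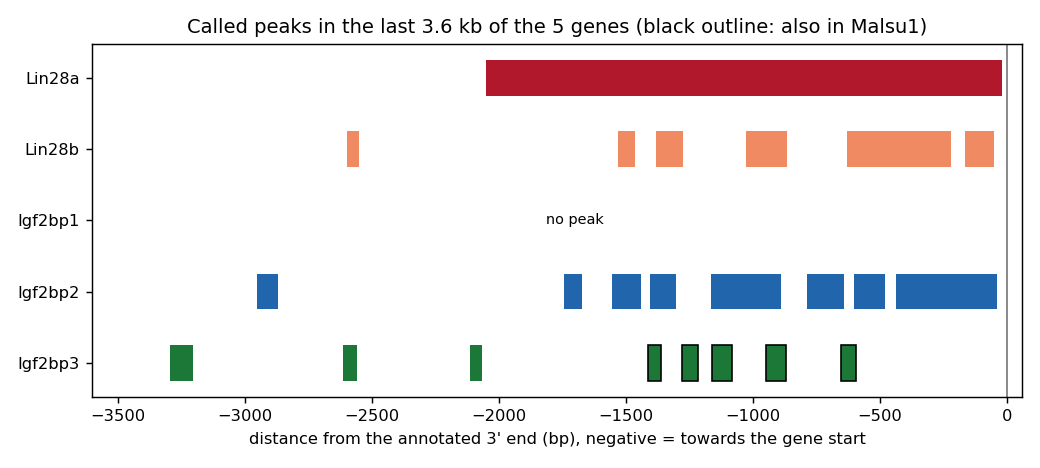
Called peaks near the 3' ends of the 5 genes, drawn to scale as bars along the distance in bp from the annotated 3' end (horizontal axis). Black outlines mark the 5 Igf2bp3 peaks that also lie in Malsu1. Lin28a has an unbroken peak of 2030 bp, Lin28b and Igf2bp2 have rows of peaks that begin within 156 bp of the end by summit, and the first Igf2bp3 summit is 624 bp from the end.

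Along the gene, member peaks lay near the 3' end about as often as those of other genes within 5 kb, and more often in the last 10%, by less than the counting interval. Of the 43 member peaks, 25 (58.1%, exact binomial 95% interval 42.1 to 73.0) lay in the last 10% of the body by summit, against 45.0% (44.4 to 45.7) of 23178 peak and gene pairs in other overlapped genes. Within 5 kb of the 3' end the shares were 53.5% (37.7 to 68.8) and 53.1% (52.5 to 53.8). Neighbouring peaks of a gene share their transcript, so these intervals cover counting only and are too narrow. The share in the last 10% was 6 of 11 in Lin28b, 9 of 13 in Igf2bp2 and 10 of 18 in Igf2bp3. The Lin28a summit fell just short of the last 10% although its peak reaches the end. Exons and untranslated regions were not analysed here.

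Fold and input level moved against each other among the members as in the rest of the list. This is partly built in, because the input level is the denominator of the fold. At most 1 duplicate tag was kept per position, and no pileup in the list passed 97 tags. Folds at high input levels are bounded by that. Nearer than 5 kb to the 3' end, the 23 member peaks had a median fold of 2.86 at a median input level of 12.7. Farther away, the 20 member peaks had a median fold of 4.30 at a median input level of 3.89. In other genes the corresponding medians were 2.84 at 11.3 and 3.97 at 3.54. Of the 43 member peaks, 5 (11.6%) had an input level of at most 1 tag, 4 of them in Lin28b and 1 in Igf2bp3, against 12.9% of pairs in other genes.

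**Figure D3:**
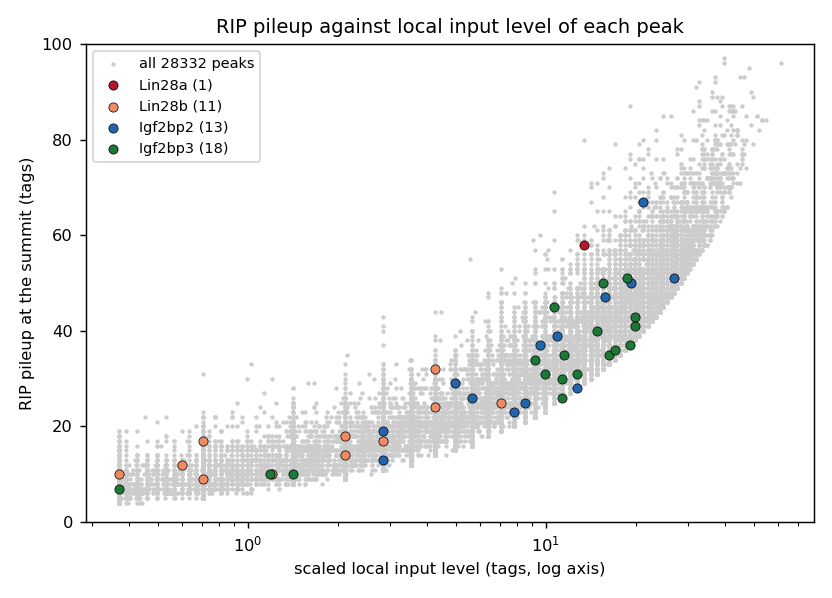
RIP pileup at the summit in tags (vertical axis) against the scaled local input level in tags (horizontal axis, log scale) for all 28332 peaks (grey) and the 43 member peaks (coloured by gene). Lin28b peaks lie at input levels up to 7.08, most Igf2bp2 and Igf2bp3 peaks lie higher, and the Lin28a peak combines 58 RIP tags with a level of 13.4.

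The input level behind most of these folds could be read back as whole tags. The level divided by the scaling factor of 0.708 was a whole number, within 0.01, at 32 of the 43 member peaks, which is what tags counted over the summit itself give. At 8 further peaks it was a multiple of what 1 tag is worth averaged over the 1000 bp window, at 1 over the 10000 bp window, and at 2 it was the genome-wide level. The 2 largest Igf2bp2 input levels that were whole numbers were 38 and 30 tags, against 10 tags for the largest in Lin28b. The input of the family thus ran from Lin28b at the low end, with a median level of 2.12 over its peaks, through Igf2bp2 at 9.52 and Igf2bp3 at 12.1 to the Lin28a peak at 13.4. These are levels at peaks, not expression of the genes. The Igf2bp3 median includes the peaks that also lie in Malsu1, whose input tags cannot be given to Igf2bp3 alone.

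Of 17 genes of let-7 processing and its control, members left out, 8 (47.1%) were overlapped. That share stands beside 23.4% of all protein-coding genes and 32.2% of those with bodies as long as the members'. The 17 include non-coding let-7 genes, which the protein-coding shares do not cover. The 32.2% is matched to the lengths of the members, not to those of the genes in this list or the lists below. Drosha, the nuclear microprocessor nuclease, had 5 peaks (best fold 5.85, from 7 RIP tags). Dis3l2, the exonuclease that degrades uridylated pre-let-7, had 3 peaks (best fold 5.11, pileup 6), all of which also overlapped a predicted gene. Zcchc11 (Tut4), the terminal uridylyltransferase recruited by LIN28A, had 1 peak (fold 4.88, from 7 RIP tags), and Zcchc6 (Tut7) had none. Trim71, the LIN-41 ubiquitin ligase and a classical let-7 target, had 14 peaks, all in the last 10% of its body, with pileups up to 72 and a best fold of 4.42. Dicer1, which cuts pre-let-7, had 7 peaks, of which 6 were in the last 10% (best fold 3.67). Ran, Khsrp and Msi1 were overlapped with best folds of 2.53, 1.96 and 2.97. Prkra and Zc3h12a were paired only with peaks outside them.

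Of 28 known let-7 targets that are not members, 15 (53.6%) were overlapped, beside the 23.4% of protein-coding genes and the 32.2% of those of member-like length. They held 97 peaks, 70 of them in the last 10% of the body. Of the pairs of all genes other than the members, 45.0% lay there. Neighbouring peaks of a gene share their transcript, so the 97 are not independent. The share differed by gene: all 14 in Trim71 and all 13 in Nr6a1, but 4 of 9 in Hmga2 and 1 of 5 in Nras. The median best fold of the 15 genes was 4.55, against 4.38 over all overlapped genes. Hmga2, an architectural chromatin protein of embryonic cells, had 9 peaks and a best fold of 10.4 with 22 RIP tags at an input level of 1.20. That peak also overlapped 1700006J14Rik, and from peaks in Hmga2 alone the best fold was 7.04. Hmga1 had 5 peaks, and its best fold of 9.50 came from 12 RIP tags (2.96 at 20 or more tags). Nr6a1 (GCNF), an orphan nuclear receptor of germ cells, had 13 peaks, all in the last 10% (best fold 7.45, pileup 17). Tgfbr1 had 6 peaks (5.86 from 9 RIP tags, 2.69 at 20 or more tags). Insr had 7 (5.85 from 7 RIP tags, 3.53 at 20 or more). By -log10 q, only Hmga2 (15.4), Hmga1 (10.8) and Igf1r (10.5) reached 10 among genes of these lists that are not members. The Hmga2 value came from the peak that also overlapped 1700006J14Rik, and the Hmga1 value from the peak of 12 RIP tags. The other 13 targets had no peak, Myc, Mycn, Ccnd1, Ccnd2 and Cdk6 among them.

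Of 21 RNAs listed as clients of IGF2BP proteins, Lin28b left out, 8 were overlapped (38.1%). The shares beside it are the 23.4% of protein-coding genes and the 32.2% of those of member-like length. Among them were Hmga2, Hmga1, Btrc, Igf1r, Nras (5 peaks, best fold 2.64) and Actb (2 peaks, 2.19). Btrc had 3 peaks (best fold 5.85 from 7 RIP tags, 2.48 at 20 or more tags). Igf1r had 6 (4.55 from 10 RIP tags, 3.06 at 20 or more). Itgb5 was paired only with a peak 5600 bp outside it. The remaining 12 had no peak, among them Igf2, the growth factor mRNA that gave the family its name, and the imprinted RNA H19. The lists overlap: taken once, 24 of 56 genes outside the members were overlapped (42.9%), set beside the same 23.4% and 32.2%. Lists were put together from textbook knowledge with earlier results of these data known, so their counts are descriptions.

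**Figure D4:**
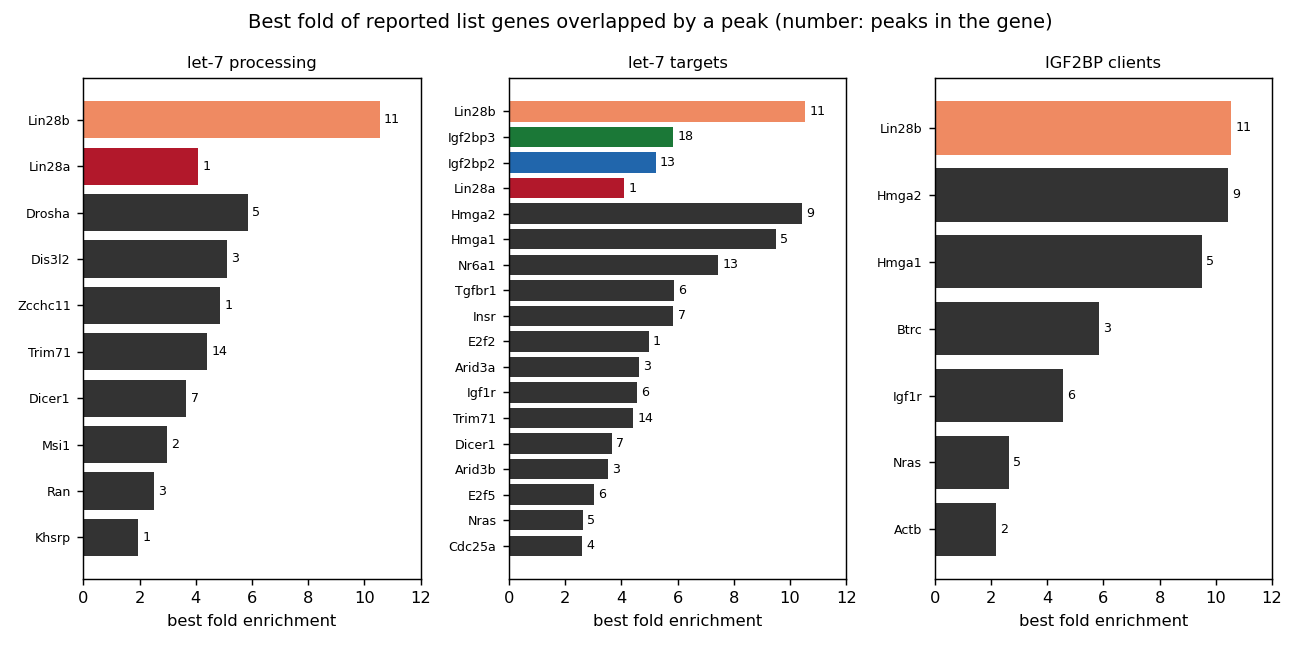
Best fold enrichment (horizontal axis) of genes of the 3 lists that a peak overlapped, members coloured and placed at the top, with the number of overlapping peaks at the end of each bar. Lin28b (10.5), Hmga2 (10.4) and Hmga1 (9.50) have the longest bars, and Trim71 has 14 peaks with a best fold of 4.42.

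The genes with the most similar peak profile were found from 4 measures, the number of peaks, best fold, best -log10 q and highest pileup, over 5509 other overlapped genes with an approved symbol. Nearest to Lin28b were Pard3b (10 peaks, best fold 11), Rabep1 (9 peaks, 10.1) and Ptprq (13 peaks, 9.95). Nearest to Igf2bp2 were Ppm1h (11 peaks, 5.12), Efcab14 (15 peaks, 5.02) and Csnk1g3 (13 peaks, 5.07). Among the 3 nearest to Igf2bp3 were Ipmk (18 peaks, 5.38) and Dcun1d1 (20 peaks, 5.80). The neighbours of Lin28a, Cd6, Son and Egfl8, each had 1 peak, with folds of 4.65, 3.59 and 3.40. No member was among the 3 nearest genes of another member.

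The tissue could be checked only through peaks. Of 8 markers of germ cells and oocytes, 4 were overlapped, beside 23.4% of protein-coding genes: Kit (best fold 10.2, from 13 RIP tags over the genome-wide level, and 2.05 at 20 or more tags), Dazl (4.31), Sycp3 (3.53, all 7 peaks also in Chpt1) and Ddx4 (2.46). Of 20 markers of pregranulosa, stromal, endothelial, erythroid and immune cells, 1 was overlapped (5%, beside the same 23.4%), the endothelial receptor gene Tek (3.97). Counted by list, 0 of 6 pregranulosa, 0 of 4 stromal, 1 of 4 endothelial, 0 of 3 erythroid and 0 of 3 immune markers had a peak in them. The level of a gene without a peak was not analysed here, and the cell type that the member transcripts came from was not tested.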

How the data were processed

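The series gives 1 peak list and 1 gene table from 1 ELAVL2 RIP and 1 input sample. The submitters' processing notes name MACS2 2.1.0.20140616, TopHat2 2.0.8b and the build mm10. In the peak list, per the file headers, 3 RIP and 3 input lanes were pooled, tags of 36 bases were extended to 50 bp, at most 1 duplicate tag was kept per position, and peaks passed a q-value of 0.05. Of all tags, 7.98% of RIP and 9.26% of input tags were used. The pileup signal is the number of RIP tags over the summit, as deposited. The deposited fold is a ratio of RIP pileup to scaled local input. The headers give no pseudocount: a value of 1 on both sides was inferred. The -log10 p and -log10 q are the authors' own and were used to describe and rank peaks. The caller ignores splicing and strand.

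From the files, 42176 exact repeats among 85730 table rows were dropped. The input level was computed as (pileup + 1) / fold - 1, and as a check of that inference a Poisson p from it differed from the deposited -log10 p by at most 2.23e-05 at member peaks. The counting of peaks per gene was tested on simulated data. Symbols were matched to RefSeq GRCm38.p6, for all 5 members and 9628 of 11969 table genes. Ratios of tags have exact binomial 95% intervals, taken at summits that were called from the same tags. Tables were handled in pandas 2.3.3 and numpy 2.4.6, intervals in scipy 1.17.1 and plots in matplotlib 3.10.9, under Python 3.11.15.

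The members and lists were chosen with earlier results of these data known. Genes outside the members were named by a rule: of each list the 5 largest best folds and any -log10 q of at least 10, and for each member the 3 genes nearest in 4 peak measures (Euclidean distance of log2 values, each divided by its SD). Further list and marker genes are named to account for their lists. A few genes that the rule or the lists hold are counted but not reported here by name or plotted. A planned comparison of protein sequences was not run, and peak sequences were not analysed here. Alternatives were stricter q, fold and pileup limits, merging, other pairings and bodies, and a fold without the pseudocount. The alternative of peaks that overlap exactly 1 gene was chosen after seeing the data.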

Additional observations from a re-analysis of the deposited data

How the results depend on the processing

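No paired analysis was possible because the series has 1 RIP and 1 input sample. Of 43 overlapping peaks, 20 were left at a -log10 q of at least 5, 17 at a fold of at least 4, 8 when paired with exactly 1 gene, and 22 when peaks within 1000 bp were counted once. Of the 24 list genes, 14, 15 and 9 were left under the first 3 of these. With peaks paired with exactly 1 gene, only Lin28b and Igf2bp3 kept a peak (2 members), and the largest -log10 q was 13.5. The share in the last 10% was then 0%, because every member peak there is also paired with another gene. That value was fixed by the pairing and does not describe position. At a fold of at least 4 the share in the last 10% was 41.2%. The best fold, 10.5 in Lin28b, was 6.29 at a pileup of at least 20 and 27.1 without the pseudocount, at another Lin28b peak. The median input level of 9.52 was 8.14 at a -log10 q of at least 2 and also from peaks in exactly 1 gene, 7.43 at 5, 12.1 at a pileup of at least 20, 2.12 at a fold of at least 4, 0.708 from peaks paired with 1 gene and 9.20 in reference bodies. The other 43 comparisons of these main values with an alternative stayed within 1.5 times for counts, 1% for values and the binomial interval for the share. Some of them could not move, such as the best -log10 q under a stricter q limit or the best fold under a fold limit. Among comparisons for single members, 26 moved and 93 did not. The best fold of Igf2bp3, 5.85, was 3.96 at a -log10 q of at least 5. Depth limits the low peaks: at pileups of 8 to 17 over 1 or 2 input tags, the counting interval of a ratio spans more than 10-fold.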
